A study of Mus musculus with 48 samples.

Results

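The transcripts described here are those of 9 genes used to recognize neutrophils: S100a8, S100a9, Csf3r, Cxcr2, Ly6g, Retnlg, Ngp, Camp and Ltf. They were chosen by gene symbol from the 47561 genes in the table, and all 9 were found. Levels are in FPKM, the fragments of a transcript scaled to its length and to the mapped fragments of the library. In every comparison all 9 passed the filter on low values, which asked for 3 or more of the mice in the fit to reach 1 FPKM.

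RNA was sequenced from the lungs of 48 adult mice in 16 groups of 3, and each mouse has its own number from 1 to 48. The mice were C3H/HeN or C57Bl/6, male or female, giving the groups C3HM, C3HF, C57BM and C57BF. Each mouse received 1 intraperitoneal injection of saline or of 25 mg/kg ATG (aurothioglucose, a gold drug and thioredoxin reductase inhibitor) and was then kept for 96 h in room air or in hyperoxia (over 95% oxygen). The substrain of C57Bl/6 is N in the methods and J in the description of the series, the labels list no transgene or deletion, and whether the lungs were perfused is not given in the sources used here.

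Neutrophils are short-lived granulocytes that are made in bone marrow, circulate in blood and are held in large numbers in the capillaries of the lung. Their release and survival depend on G-CSF, and they enter tissue along gradients of ELR chemokines such as Cxcl1, Cxcl2 and Cxcl5. Transcripts of the granule proteins are made mainly in marrow precursors, whereas transcripts of S100a8, S100a9 and Cxcr2 are abundant in the mature cell.

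S100a8 and S100a9 encode the paired subunits of calprotectin, a calcium- and zinc-binding protein that fills the neutrophil cytosol. Csf3r encodes the receptor for G-CSF and Cxcr2 the receptor for the ELR chemokines. Ly6g encodes the surface antigen that antibodies use to gate mouse neutrophils, and Retnlg a secreted resistin-like protein. Ngp, Camp and Ltf encode proteins of the secondary granules: neutrophilic granule protein, the cathelicidin precursor and lactoferrin. In GRCm38 (the assembly also known as mm10), S100a8 lies at chr3:90668978-90670035 on the plus strand and S100a9 at chr3:90692632-90695721 on the minus strand, with 22597 bases between them. The 3 granule genes all lie on chromosome 9, Camp at chr9:109847379-109849617, Ngp at chr9:110419747-110423012 and Ltf at chr9:111019271-111042767. Csf3r is at chr4:126024550-126044440, Cxcr2 at chr1:74153989-74161246, Ly6g at chr15:75155240-75159126 and Retnlg at chr16:48872621-48874496. All 9 are protein coding, and none overlaps another annotated gene.

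The promoters of 6 members are printed here because S100a8, S100a9, Retnlg and Ngp moved with hyperoxia while Camp and Ltf, the other granule genes, did not pass the test. Each is the 250 bases before the gene's start in RefSeq, read 5′ to 3′ on the gene's strand. The gene coordinates above are from GENCODE, where some starts differ. The windows of S100a8, Ngp, Camp and Ltf therefore run into the genes as placed above, that of Camp for most of its length. The windows (GRCm38.p6) are S100a8 at chr3:90668821-90669070 (plus), S100a9 at chr3:90695722-90695971 (minus), Retnlg at chr16:48872358-48872607 (plus), Ngp at chr9:110419558-110419807 (plus), Camp at chr9:109849457-109849706 (minus) and Ltf at chr9:111019042-111019291 (plus). Capitals mark matches, on either strand, to TTNNGCAA (a core bound by C/EBP factors) or to GAGGAA (a core bound by PU.1).
S100a8: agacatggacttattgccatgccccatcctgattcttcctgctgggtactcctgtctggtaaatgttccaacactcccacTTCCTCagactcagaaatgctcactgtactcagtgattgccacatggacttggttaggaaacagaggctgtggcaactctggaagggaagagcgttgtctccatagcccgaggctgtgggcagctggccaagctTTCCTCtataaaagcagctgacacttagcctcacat
S100a9: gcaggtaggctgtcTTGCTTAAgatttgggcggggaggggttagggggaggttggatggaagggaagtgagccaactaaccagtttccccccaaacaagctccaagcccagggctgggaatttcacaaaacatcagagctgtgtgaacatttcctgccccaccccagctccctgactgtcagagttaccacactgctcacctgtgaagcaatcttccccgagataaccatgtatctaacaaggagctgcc
Retnlg: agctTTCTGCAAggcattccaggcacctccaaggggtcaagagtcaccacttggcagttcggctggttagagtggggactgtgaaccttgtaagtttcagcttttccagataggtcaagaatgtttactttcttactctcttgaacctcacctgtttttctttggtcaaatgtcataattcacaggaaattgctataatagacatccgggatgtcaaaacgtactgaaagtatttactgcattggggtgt
Ngp: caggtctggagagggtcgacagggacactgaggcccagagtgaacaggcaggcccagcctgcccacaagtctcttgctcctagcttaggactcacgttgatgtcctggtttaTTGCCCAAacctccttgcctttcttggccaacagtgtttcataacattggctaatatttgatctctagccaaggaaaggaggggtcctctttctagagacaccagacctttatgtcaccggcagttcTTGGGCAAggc
Camp: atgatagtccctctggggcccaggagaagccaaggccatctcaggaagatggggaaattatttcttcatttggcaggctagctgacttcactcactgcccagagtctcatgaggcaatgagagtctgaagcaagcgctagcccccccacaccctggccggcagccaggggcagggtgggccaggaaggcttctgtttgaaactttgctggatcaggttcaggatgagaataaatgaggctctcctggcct
Ltf: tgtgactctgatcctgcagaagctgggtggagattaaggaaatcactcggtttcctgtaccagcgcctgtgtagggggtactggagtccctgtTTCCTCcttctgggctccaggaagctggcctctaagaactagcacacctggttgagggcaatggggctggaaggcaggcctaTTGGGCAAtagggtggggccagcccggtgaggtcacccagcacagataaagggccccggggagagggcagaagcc

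The C/EBP core was found in the promoters of 5 of the 9 members (S100a9, Ly6g, Retnlg, Ngp and Ltf) and in 9.57% of the 32841 promoters in the RefSeq table. A member was counted if any of its promoters held a core, whereas the shares over all are of single promoters. Of the Ly6g promoters, that at chr15:75155011-75155260 held the C/EBP core and that at chr15:75155079-75155328 did not. The PU.1 core was found in 5 of the 9 (S100a8, Csf3r, Cxcr2, Ly6g and Ltf) and in 23.3% of all promoters. Marked matches of the C/EBP and PU.1 cores did not overlap each other. The S100a8 promoter held 2 PU.1 cores, at 170 and 36 bases before the RefSeq start, and the second was followed directly by TATAAA, which 7.59% of promoters hold. The Ngp promoter held 2 C/EBP cores, at 138 and 11 bases before the RefSeq start. For both S100a8 and Ngp the core nearer the RefSeq start lies inside the gene as placed by GENCODE. The Camp window, most of which lies inside the GENCODE gene, held neither core, and the Ltf promoter held both. A relation of either core to the transcript levels was not tested.

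In saline mice in room air the alarmin pair was by far the most abundant of the members. On the FPKM scale, which is per length, S100a9 ranged from 62.8 to 403 with a median of 148 over 12 mice, and S100a8 from 51.8 to 287 with a median of 101.5. Retnlg came next with a median of 16.4 FPKM (6.33 to 65.2). Ltf (0.158 to 33.5, median 5.67), Csf3r (1.94 to 11.5, median 5.13) and Cxcr2 (1.06 to 7.82, median 3.32) were lower, and these ranges overlapped. Ngp had a median of 1.93 FPKM, Camp of 1.63 and Ly6g of 0.712, and Ly6g was listed at 0 in 3 of the 12 mice. Ly6g, the antigen that defines the cell, was thus at or under 1.57 FPKM in every one of these lungs, while S100a8, S100a9 and Retnlg were well above 1 FPKM in all of them.

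**Figure D1:**
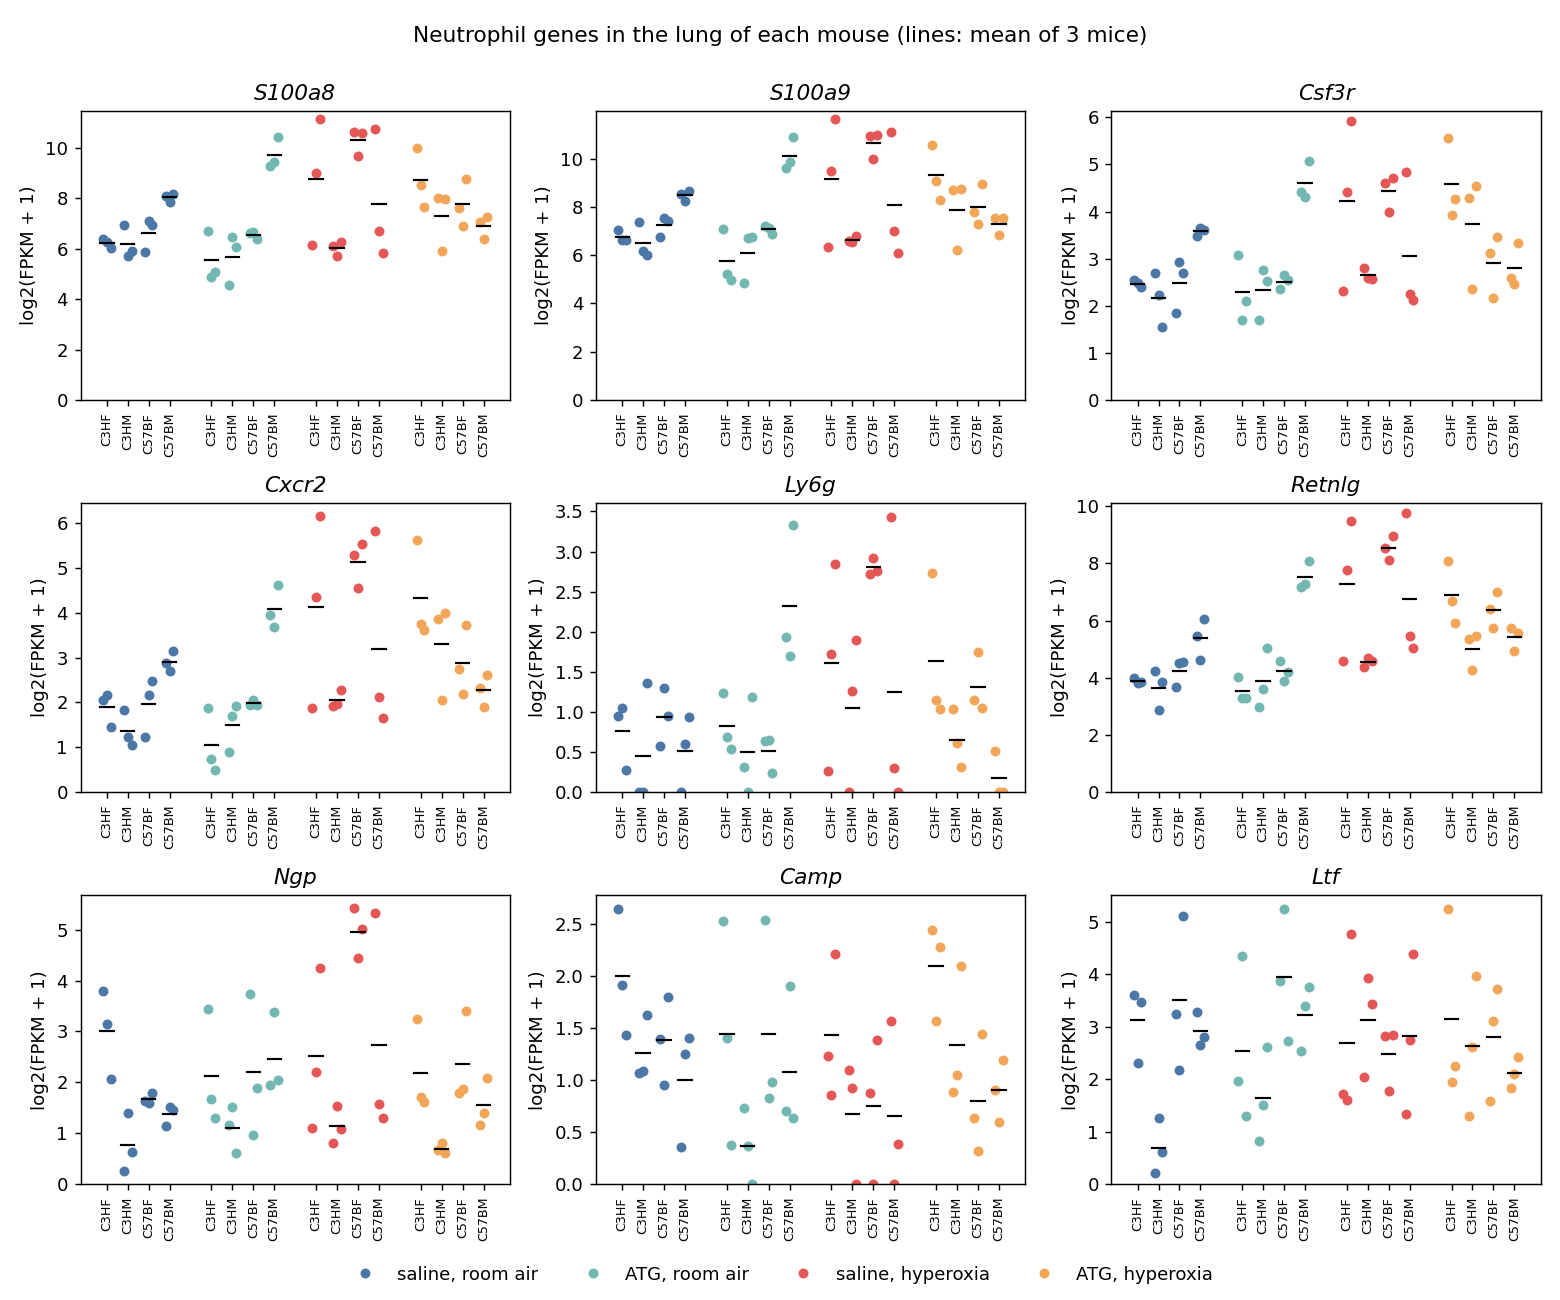
Level of each of the 9 genes as log2(FPKM + 1) in every mouse, in 1 panel per gene. Points are mice, lines are means of 3 mice, colors are the 4 combinations of injection and air, and the horizontal axis gives strain and sex. For S100a8 the C57BM mice are the highest of the room air groups, whether given saline (226 to 287 FPKM) or ATG (611 to 1359), and saline mice in hyperoxia spread from 51.7 to 2230.

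The first comparison asked how the members differed between strains at baseline, in the 12 saline mice kept in room air. The labels give these mice an injection of saline and 96 h in room air, whereas the methods mention neither for the 12 mice they describe, so what baseline means rests on the labels. S100a8, S100a9, Retnlg, Cxcr2 and Csf3r were lower in C3H than in C57B, so that 5 of the 9 members passed the test in that direction, against 7.87% of the 15546 genes tested. S100a8 was 81.9, 75.3 and 63.5 FPKM in C3HF (mice 25, 26 and 27) and 122, 51.8 and 58.9 in C3HM (mice 1, 2 and 3). It was 56.6, 135 and 121 in C57BF (mice 37, 38 and 39) and 269, 226 and 287 in C57BM (mice 13, 14 and 15). The C57BM mice were thus above all 9 other mice, while C57BF and both C3H groups overlapped. The log2 difference, C3H minus C57B averaged over the sexes, was -1.12 for S100a8 (SE 0.24, adjusted p = 0.00997, limma with Benjamini-Hochberg adjustment over all genes) and -1.22 for S100a9 (SE 0.23, adjusted p = 0.00411). The median over all genes was -0.0967 and the median over the members was -0.808. Of all genes called, 609 were higher and 1223 lower in C3H, against 974 and 930 with quantile normalization and 929 and 1008 with median ratio scaling, under both of which S100a8 and S100a9 still passed and the other 3 did not.

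Retnlg was 6.33 to 17.8 FPKM in the 6 C3H mice (median 13.6) and 11.8 to 65.2 in the 6 C57B mice (median 23.3), a log2 difference of -1.04 (SE 0.28, adjusted p = 0.0298). The receptors differed less, with -0.81 for Cxcr2 (SE 0.23, adjusted p = 0.0411) and -0.72 for Csf3r (SE 0.21, adjusted p = 0.0479). Ltf was -1.30 (SE 0.43, adjusted p = 0.0696), Ngp 0.36, Camp 0.44 and Ly6g -0.12, and these 4 did not pass. For all 9 members the ranges of the 6 C3H and the 6 C57B mice overlapped. Of all genes, 3.85% were lower and 2.14% higher in each C3H mouse than in any C57B mouse. The calls of S100a8 and S100a9 were kept when any 1 of the 12 mice was left out. Those of Retnlg, Cxcr2 and Csf3r were lost often, and only 2 or 3 members passed without 1 of mice 3, 13, 14, 15, 25, 26, 27, 38 or 39. No member passed when all 48 mice were fitted together, where the adjusted p of S100a9 was 0.206.

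Markers of other cells differed between the strains in the same mice. B cell markers summed to 45.8 to 144 FPKM in C3H and 164 to 204 in C57B, without overlap, and 5 of the 6 were lower in C3H. T cell markers summed to 26.5 to 53.7 FPKM in C3H and 50.7 to 86.6 in C57B, with 3 of 7 lower. Of 8 monocyte markers 5 were lower and 1 higher in C3H, and of 11 alveolar macrophage markers 1 and 5. Of 6 alveolar type 2 markers 4 were lower and 0 higher, and of 5 NK cell markers 2 and 0. Over all genes 7.87% were lower and 3.92% higher. The monocyte markers summed to 106 to 271 FPKM in C3H (median 222) and 157 to 220 in C57B (median 180), so the median sum went against the count. The alveolar macrophage markers summed to 498 to 701 FPKM in C3H (median 586) and 320 to 816 in C57B (median 641). Chil3, the most abundant of them, had a median of 62.2 FPKM in C3H and 290 in C57B. Their part in the members' difference was not tested.

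For 5 members (S100a8, S100a9, Csf3r, Cxcr2 and Retnlg) every C57BM mouse lay above the 9 other saline mice in room air, as 3.18% of genes did. Csf3r was 10.1, 11.5 and 11.2 FPKM in C57BM and at most 6.62 in the others. Cxcr2 was 6.35, 5.53 and 7.82 in C57BM and at most 4.61 in the others. Ngp went the other way and was the highest in C3HF, with 12.8, 7.90 and 3.20 FPKM against 0.198, 1.66 and 0.561 in C3HM and 1.21 to 2.49 in the 6 C57B mice. The difference between males and females of C3H was -2.23 for Ngp (SE 0.39, adjusted p = 0.0280). This contrast was added after the values were seen, 0.489% of genes were lower in it, and the call was lost without any 1 of mice 1, 3, 25 or 26 (adjusted p 0.0971 to 0.135). Ltf had the same order in C3H, with 11.1, 3.99 and 10.1 FPKM in C3HF and 0.158, 1.39 and 0.528 in C3HM, but its difference of -2.44 (SE 0.60) had an adjusted p of 0.0739. Ngp and Ltf were the 2 members lower in every C3HM than in every C3HF mouse, as 15.4% of genes were.

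Averaged over the strains, sex at baseline was past the threshold for 0 of the 9 members and for 0.669% of all genes, with 4 members at an unadjusted p under 0.05. S100a8 was 0.69 higher in males (SE 0.24, adjusted p = 0.142) and Ngp was -1.27 (SE 0.27, adjusted p = 0.0625). The interaction of sex and strain called 0 members and 0 of the 15546 genes, although 6 members and 2538 genes had an unadjusted p under 0.05, and its estimates were -1.42 for S100a8 (SE 0.48) and -1.49 for S100a9 (SE 0.45), both with an adjusted p above 0.2. Leaving out C3HM mouse 2, 3 members passed for sex and 1 for the interaction, and leaving out C3HF mouse 27, 1 passed for sex.

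Hyperoxia raised 7 of the 9 members in saline mice, averaged over the 4 strain and sex groups. The alarmins, both receptors, Ly6g, Retnlg and Ngp were higher, against 31.8% of the 16321 genes tested, and Camp and Ltf did not pass. S100a8 ranged from 51.7 to 2230 FPKM over the 12 hyperoxia mice (median 306.5) and from 51.8 to 287 over the 12 room air mice (median 101.5). The ranges overlapped for all 9 members, while every hyperoxia mouse was above every room air mouse for 5.61% of genes and below for 2.13%. For S100a8, 6 of the 12 hyperoxia mice were above the highest room air mouse. They were C57BM mouse 19, C3HF mice 32 and 33 and C57BF mice 43, 44 and 45, and the same 6 mice were above for 5 members, S100a8, S100a9, Csf3r, Cxcr2 and Retnlg. In a bulk sample, more cells of a type and more RNA per cell cannot be told apart, nor can fewer cells and less RNA per cell.

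Retnlg showed the largest difference among the members. It ranged from 19.9 to 870 FPKM in hyperoxia (median 129) and from 6.33 to 65.2 in room air, a log2 change of 2.49 (SE 0.49, adjusted p = 0.000219). Cxcr2 was 2.16 to 70.4 FPKM in hyperoxia against 1.06 to 7.82, a change of 1.59 (SE 0.43, adjusted p = 0.00330). The other receptor moved less, with 0.92 for Csf3r (SE 0.33, adjusted p = 0.0224). The alarmins changed by 1.44 for S100a8 (SE 0.49, adjusted p = 0.0161) and 1.38 for S100a9 (SE 0.51, adjusted p = 0.0244).

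Ly6g and Ngp are less abundant, and their changes were 1.01 for Ly6g (SE 0.36, adjusted p = 0.0192) and 1.13 for Ngp (SE 0.39, adjusted p = 0.0178). Ly6g was listed at 0 in 2 of the 12 hyperoxia mice and reached 9.80 FPKM in C57BM mouse 19. Camp went down in estimate, from a median of 1.63 FPKM to 0.866, with a log2 change of -0.53 (SE 0.23, adjusted p = 0.0523), and no hyperoxia mouse was above the highest room air mouse. Ltf was 0.23 (SE 0.41, adjusted p = 0.657), with 1.55 to 26.2 FPKM in hyperoxia and 0.158 to 33.5 in room air. The 7 calls were kept when any 1 of the 24 mice was left out, and that of Ly6g was lost with a pseudocount of 0.1 (adjusted p = 0.0876).

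Hyperoxia was also compared with room air within each strain and sex group, in contrasts added after the values were seen. In C57BF, S100a8 was 1584, 806 and 1523 FPKM (mice 43, 44 and 45) against 56.6, 135 and 121 in room air, a ratio of medians of 12.6. Every C57BF hyperoxia mouse was above every C57BF room air mouse for 7 members (S100a8, S100a9, Csf3r, Cxcr2, Ly6g, Retnlg and Ngp), as for 28.7% of genes, and the same 7 passed the test, against 19.9% of genes. The log2 changes were 4.29 for Retnlg (SE 0.99, adjusted p = 0.00161), 3.66 for S100a8 (SE 0.99, adjusted p = 0.00521), 3.28 for Ngp (SE 0.79, adjusted p = 0.00225) and 3.16 for Cxcr2 (SE 0.86, adjusted p = 0.00561). The calls of Csf3r (without mouse 37, 43 or 45, adjusted p 0.0602 to 0.0938) and of Ly6g (without any 1 of the 6 C57BF mice, 0.0525 to 0.113) were lost with 1 mouse less.

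In C3HF and C57BM the 3 hyperoxia mice differed widely among themselves. In C3HF, S100a8 was 69.0, 510 and 2230 FPKM in hyperoxia (mice 31, 32 and 33) against 63.5 to 81.9 in room air. In C57BM it was 1703, 103 and 56.4 (mice 19, 20 and 21) against 226 to 287. The highest mouse was thus 32.3 times the lowest in C3HF and 30.2 times in C57BM, with 1 C57BM mouse above and 2 below the room air mice. In C3HM it was 67.3, 51.7 and 76.2 (mice 7, 8 and 9) against 51.8 to 122 in room air, so the mice overlapped. Retnlg was the only member called in C3HF (3.38, SE 0.99, adjusted p = 0.0188, against 12% of genes higher), and this call was lost without mouse 26, 32 or 33 (adjusted p 0.0505 to 0.134). Without C3HF mouse 31 or C57BM mouse 19, 5 members were called in C3HF. In C57BM 0 members were called, against 37.7% of genes, and 0 had an unadjusted p under 0.05.

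In C3HM the member that passed was Ltf, the lactoferrin gene. It was 3.13, 14.3 and 9.83 FPKM in hyperoxia against 0.158, 1.39 and 0.528 in room air, a log2 change of 2.45 (SE 0.82, adjusted p = 0.0302, against 22.9% of genes higher), which was lost without mouse 1, 3, 8 or 9 (adjusted p 0.0782 to 0.123). Retnlg was 19.9, 25.1 and 23.1 against 17.8, 6.33 and 13.6, so that every hyperoxia mouse was above, but with 0.90 (SE 0.99) and an adjusted p of 0.533 it did not pass. This SE is pooled over all saline groups, including C3HF and C57BM, whose hyperoxia mice differed widely. Cxcr2 was also above in every C3HM mouse, with 2.79, 2.91 and 3.87 FPKM against 2.53, 1.35 and 1.06. Of the 14268 genes compared, 29.3% were above in this way.

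**Figure D2:**
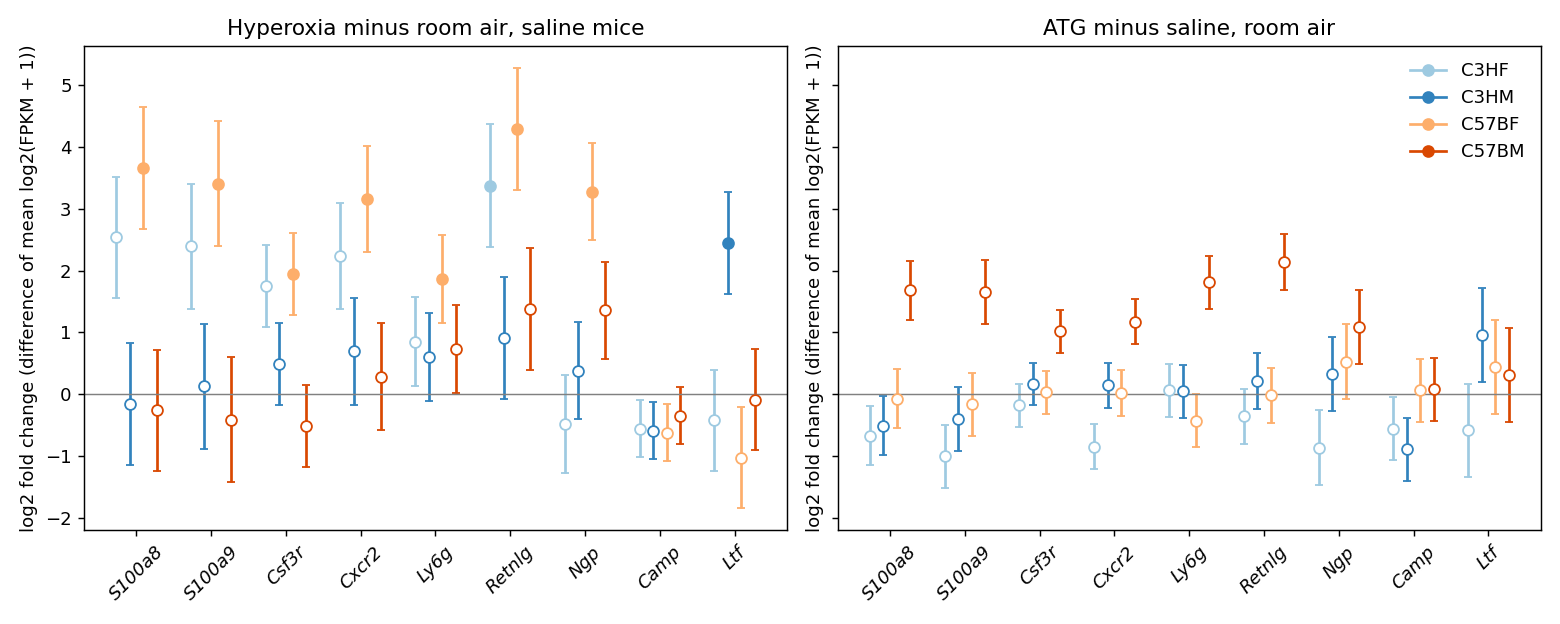
Log2 fold change of each member within each strain and sex group, for hyperoxia against room air in saline mice (left) and for ATG against saline in room air (right). Points are limma estimates with SE as bars, and filled points passed an adjusted p of 0.05. The SE is pooled over all groups of the fit and is not the spread of the named group alone. C57BF has 7 filled points on the left, C3HF has Retnlg and C3HM has Ltf, and on the right no point is filled although those of C57BM are the highest for every member but Ltf.

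Within strains, Retnlg was the 1 member called in C3H (2.14, SE 0.70, adjusted p = 0.0207, against 25.3% of genes higher), and without C3HF mouse 33 its adjusted p was 0.0683. In C3H 4130 genes were higher and 2039 lower, against 3063 and 2968 with quantile normalization and 2912 and 3111 with median ratio scaling. In C57B 5 members were called, against 25.5% of genes higher: Retnlg (2.84, SE 0.70), Ngp (2.32, SE 0.56), Cxcr2 (1.72, SE 0.61), S100a8 (1.70, SE 0.70) and Ly6g (1.30, SE 0.50). Without C57BM mouse 19 or C57BF mouse 37 only 2 of these passed, Retnlg and Ngp, and without mouse 13, 14, 39, 43 or 45 there were 3. The call of S100a8 was lost in 16 of the 24 fits with 1 mouse less, where its adjusted p reached 0.161. The difference between the strains in the response was itself past the threshold for 0 of the 9 members, against 11.5% of genes, with 1 member at an unadjusted p under 0.05. It was -2.37 for Ngp (SE 0.79, adjusted p = 0.0557), and 1 member passed without mouse 20, 21, 27 or 33.

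The difference between the sexes in the response called 0 members and 0.0368% of genes, with 6 members at an unadjusted p under 0.05. Its estimates, males minus females, were -3.31 for S100a8 (SE 0.99, adjusted p = 0.155), -3.04 for S100a9 (SE 1.02, adjusted p = 0.174) and -2.69 for Retnlg (SE 0.99, adjusted p = 0.190). Without C57BM mouse 19, the male with 1703 FPKM of S100a8, 5 members passed. Among saline mice in hyperoxia, Ngp was lower in C3H than in C57B, with a difference of -2.01 (SE 0.56, adjusted p = 0.0107), against 11.1% of genes. Of the genes called, 2632 were higher and 1809 lower in C3H, and 2269 and 2444 with median ratio scaling. Ngp was 0.756 to 17.9 FPKM in the 6 C3H mice (median 1.53) and 1.45 to 41.7 in the 6 C57B mice (median 25.8), so the ranges overlapped. The other 8 members did not pass, with -1.63 for S100a8 (SE 0.70, adjusted p = 0.0889) and -1.73 for Retnlg (SE 0.70, adjusted p = 0.0718), while without C57BM mouse 20, C57BM mouse 21 or C3HF mouse 33 the number of members called was 2, 4 and 5.

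ATG in room air called 0 of the 9 members when averaged over the groups, against 0.0185% of genes. At an unadjusted p under 0.05 there were 1 member, Retnlg, and 1077 genes, and the members had estimates from -0.33 for Camp (SE 0.25, adjusted p = 0.785) to 0.49 for Retnlg (SE 0.22, adjusted p = 0.719). The C57BM mice stood apart. S100a8 was 611, 693 and 1359 FPKM in C57BM given ATG (mice 16, 17 and 18), against 269, 226 and 287 with saline and 22.3 to 101.5 in the 9 other ATG mice in room air. Every ATG mouse of C57BM was above every saline mouse of C57BM for 7 members (S100a8, S100a9, Csf3r, Cxcr2, Ly6g, Retnlg and Ngp), as for 4.99% of genes.

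Retnlg was 145, 154 and 272 FPKM with ATG in C57BM against 42.7, 23.9 and 65.2 with saline, and Ly6g was 2.81, 2.25 and 9.06 against 0, 0.516 and 0.909. Both groups were fully separated, with 3 mice each. The log2 change in C57BM was 2.14 for Retnlg (SE 0.45, adjusted p = 0.353), 1.81 for Ly6g (SE 0.43, adjusted p = 0.752) and 1.68 for S100a8 (SE 0.48, adjusted p = 1), so 0 members passed in this contrast, which called 1 of 16228 genes (0.00616%). At an unadjusted p under 0.05 it held 6 members and 508 genes. The two-sided exact permutation test of 3 against 3 mice gave p = 0.1 for each of S100a8, Retnlg and Ngp, the smallest p that it can give. The other groups did not show this order, with S100a8 medians of 32.6 FPKM after ATG and 75.3 after saline in C3HF, and 96.6 and 121 in C57BF, and overlapping mice in C3HM (22.3 to 86.3 and 51.8 to 122). The difference of the ATG effect between strains, between sexes and in their 3-way term was past the threshold for 0 members each, against 0%, 0.00616% and 0% of genes, with 4, 4 and 1 members at an unadjusted p under 0.05. The lowest adjusted p of a member was 0.959, 0.677 and 0.688.

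The 1 gene called for ATG in C57BM in room air was Mmp8, the neutrophil collagenase of the secondary granules, which is no member and was named after its value was seen. It was 8.59 to 15.9 FPKM with ATG and 2.00 to 3.01 with saline in C57BM, a log2 change of 1.91 (SE 0.26, adjusted p = 0.00808). The number of genes called was 0 without 1 of mice 13, 14, 16 or 18, with a pseudocount of 0.1 or with all 48 mice fitted. In the same mice the summed FPKM of red blood cell genes was 6611 to 11343 with ATG and 16637 to 18942 with saline, and that of B cell markers was 121 to 133 and 173 to 202. Monocyte markers summed to 189 to 289 and 182 to 220, and Chil3, a gene of macrophages and neutrophils, was 490 to 564 and 359 to 394. The part of these in the members' values was not tested.

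In hyperoxia, ATG called 0 of the 9 members averaged over the groups, against 5.47% of genes, and at an unadjusted p under 0.05 there were 1 member, Ngp, and 3472 genes. In C57BF given ATG, S100a8 was 194, 119 and 434 FPKM (mice 46, 47 and 48) against 1584, 806 and 1523 with saline, a ratio of medians of 0.127. All 3 ATG mice were below all 3 saline mice for the same 7 members that hyperoxia raised in C57BF, as for 6.66% of genes. These 7 had estimates from -2.63 for S100a9 (SE 1.14) to -1.49 for Ly6g (SE 0.72) with adjusted p from 0.281 to 0.449, so none passed, against 0.0315% of genes called, and 5 had an unadjusted p under 0.05. The hyperoxia and the ATG comparison in C57BF share the saline hyperoxia mice.

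In C3HM, C3HF and C57BM the ATG and saline mice in hyperoxia overlapped for every member, while 13.7%, 9.69% and 8.39% of genes were higher in every ATG mouse. A further 10.2%, 4.61% and 3.33% of genes were lower in every ATG mouse. In C3HM, S100a8 was 258, 58.7 and 252 FPKM with ATG against 67.3, 51.7 and 76.2 with saline, and in C3HF it was 1006, 365 and 202 against 69.0, 510 and 2230. In C57BM it was 131, 83.2 and 151 against 1703, 103 and 56.4. These C57BM values with ATG in hyperoxia were all below the 611 to 1359 of C57BM with ATG in room air. The ATG effect in hyperoxia minus that in room air, averaged over the groups, called 0 members, against 2.77% of genes, with 4 members at an unadjusted p under 0.05, and the largest estimates were -1.40 for Ngp (SE 0.53, adjusted p = 0.139) and -1.35 for Retnlg (SE 0.58, adjusted p = 0.199).

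The members differed in how closely they followed S100a8 from mouse to mouse. Over the 48 mice, Pearson's r of log2(FPKM + 1) with S100a8 was 0.994 for S100a9, 0.966 for Cxcr2, 0.946 for Retnlg and 0.932 for Csf3r. It was 0.772 for Ly6g and 0.643 for Ngp, but 0.171 for Camp and 0.164 for Ltf. Within the 16 groups, after group means were removed, it was 0.991 for S100a9, 0.976 for Cxcr2, 0.702 for Ngp, 0.415 for Camp and 0.128 for Ltf. These are descriptions, since the 48 points share strains, treatments and, within a mouse, a library. Each FPKM value also shares the library's scaling, the sum of FPKM being 510933 to 748290 per mouse.

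**Figure D3:**
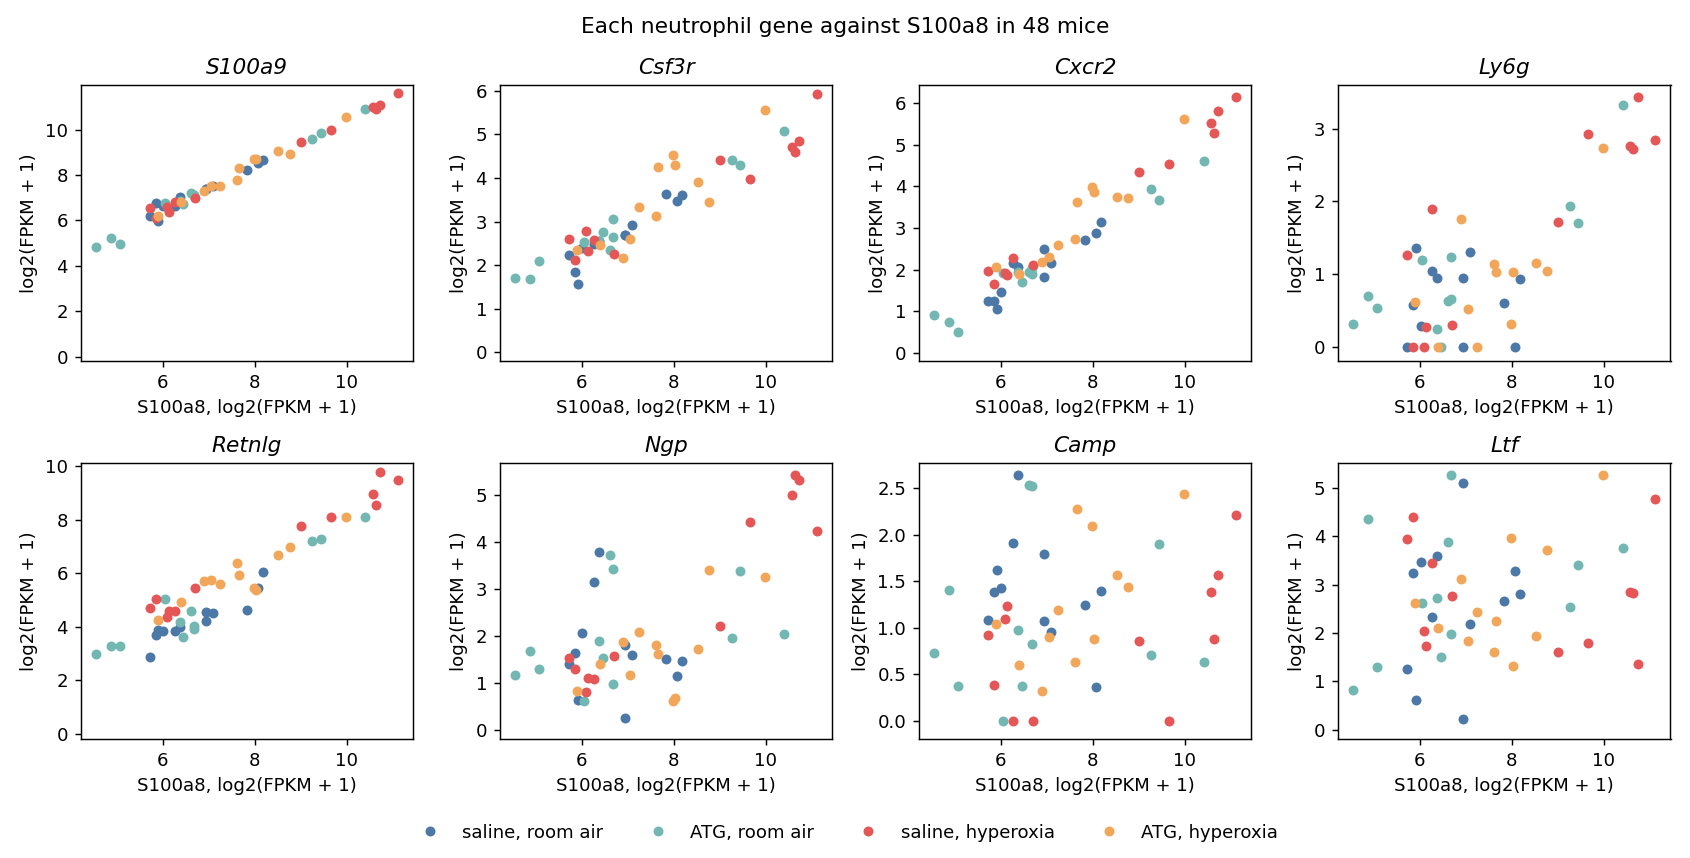
Each of the other 8 members against S100a8 in 48 mice, both as log2(FPKM + 1), with colors for injection and air. S100a9, Cxcr2, Retnlg and Csf3r lie along a line (Pearson's r 0.932 to 0.994), Ngp rises mainly at the highest S100a8 levels, and Camp and Ltf form clouds (r 0.171 and 0.164).

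The proportions of the members within a mouse were compared after the values were seen and are given without a test. The ratio of S100a9 to S100a8 FPKM stayed between 0.933 and 1.90 in all 48 mice, while S100a8 itself ran from 22.3 to 2230. The ratio of Retnlg to S100a8 was 0.106 to 0.231 in the 12 saline mice in room air and 0.237 to 0.573 in the 12 saline mice in hyperoxia. These ranges did not overlap, although those of Retnlg and of S100a8 alone did. How often ratios of other gene pairs separate in this way was not counted. The ratio of Retnlg to S100a8 was also above the room air range in the saline hyperoxia mice whose S100a8 was low. Among these, C57BM mouse 21, with 32.3 FPKM of Retnlg and 56.4 of S100a8, had the highest ratio of all 48 mice. The ratio was nearer the room air range in C3HM mouse 7, with 19.9 FPKM of Retnlg and 67.3 of S100a8. With ATG the ranges overlapped, at 0.129 to 0.486 in room air and 0.155 to 0.439 in hyperoxia. The ratio of Cxcr2 to Csf3r had a median of 0.535 in saline mice in room air and 0.923 in hyperoxia, with overlapping ranges of 0.364 to 0.847 and 0.47 to 1.99. Within hyperoxia its median was 1.57 in the 6 C57B mice and 0.726 in the 6 C3H mice. The ratio of Ngp to S100a8 overlapped, at 0.00163 to 0.156 in saline mice in room air and 0.00708 to 0.0369 in hyperoxia.

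**Figure D4:**
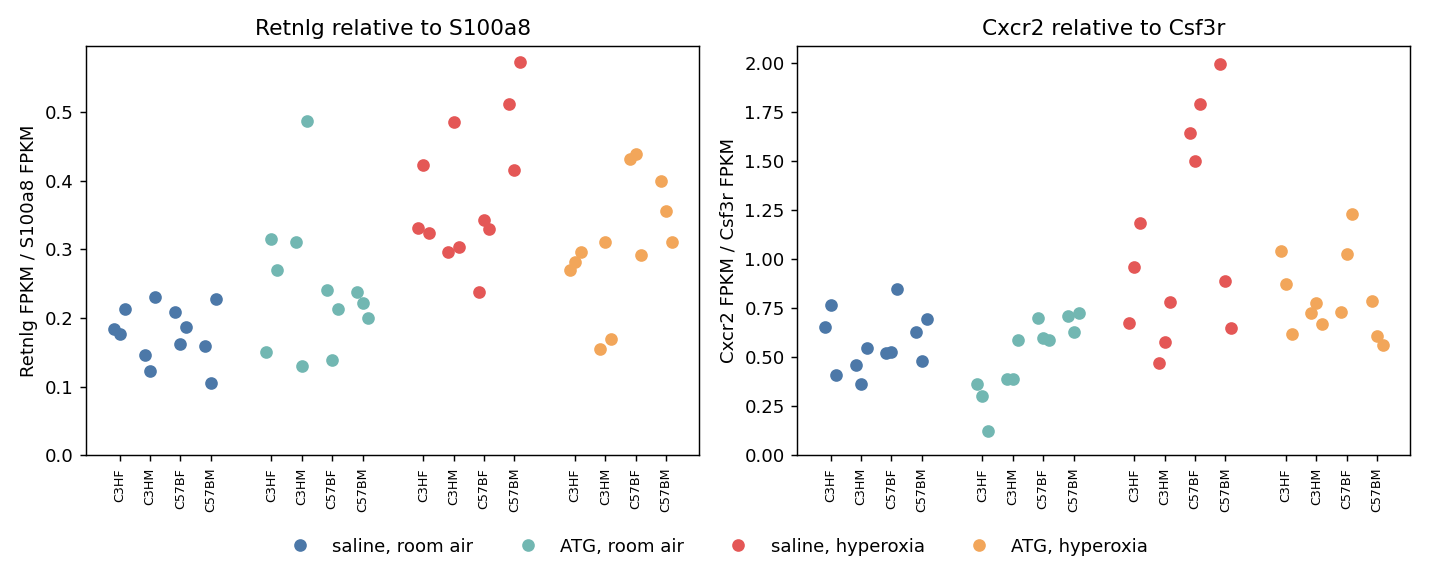
Ratio of Retnlg to S100a8 FPKM (left) and of Cxcr2 to Csf3r FPKM (right) in every mouse, by strain and sex along the horizontal axis and by injection and air in color. On the left the saline mice in room air (0.106 to 0.231) and in hyperoxia (0.237 to 0.573) do not overlap, while the ATG mice do. Both ratios were compared after the values were seen, without a test.

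Other genes of neutrophils were read from lists. Of the 12 other granule and effector genes tested, 9 were higher and 1 lower in saline mice in hyperoxia, against 31.8% and 28.3% of all genes, shares that also stand behind the counts of the lists that follow. Their median log2 change was 1.11 beside 1.13 for the members and 0.0129 for all genes. The largest changes were 2.51 for Mmp8 (SE 0.37), 2.38 for Lcn2 (SE 0.27), which encodes a siderophore-binding protein also made by lung epithelium, and 2.14 for Chil3 (SE 0.17), which alveolar macrophages also express. Mpo, Elane, Ctsg, Bpi and Fcnb, genes of primary granules or of precursors, were at most 0.692 FPKM in the saline mice and too low to be tested. Of 19 other receptor and surface genes tested, 11 were higher and 1 lower, with 2.87 for Il1r2, a decoy receptor for IL-1 (SE 0.57), 1.81 for Clec4d, a lectin receptor (SE 0.36), and -1.56 for Cxcr4, the marrow retention receptor that many other cells express (SE 0.12). Itgam, an integrin subunit, is listed in 2 rows, of which 1 was higher.

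Of the 15 chemokine and growth factor genes tested, 10 were higher and 2 lower. The summed FPKM of the list had a median of 1134 in room air and 962 in hyperoxia. Most of the room air sum was Cxcl15, with a median of 1067 FPKM in room air and 431 in hyperoxia. Cxcl1, a ligand of the receptor encoded by Cxcr2, ranged from 2.79 to 693 FPKM in hyperoxia and from 0.169 to 3.05 in room air, a change of 4.09 (SE 0.66). Il6 changed by 4.02 (SE 0.56) and Cxcl5, another ligand of Cxcr2, by 2.93 (SE 0.45). Csf3, which encodes G-CSF, was at most 0.253 FPKM in room air and reached 106 in hyperoxia, a change of 2.63 (SE 0.59). Of the 6 transcription factors of granulocyte development tested, 4 were higher, led by Cebpd (1.77, SE 0.17), Cebpb (0.90, SE 0.16) and Runx1 (0.66, SE 0.13), and 1 was lower.

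Markers of other cells also moved with hyperoxia in saline mice. All 7 T cell, 6 B cell and 5 NK cell markers and the 5 red blood cell genes tested were lower, and the last summed to 3341 to 67961 FPKM in room air and 305 to 2004 in hyperoxia, most of it Hbb-bs, with Alas2 listed at 0. Of the 8 monocyte markers 3 were higher and 3 lower, close to the shares over all genes, and Ly6c2 was 41.2 to 168 FPKM in room air and 82.9 to 482 in hyperoxia. Of the 11 alveolar macrophage markers 6 were higher and 5 lower, with sums of 486 to 1992 FPKM in hyperoxia and 320 to 816 in room air. Of 6 alveolar type 2 markers 1 was higher and 5 lower, and they summed to 6040 to 22021 FPKM in hyperoxia and 25813 to 49646 in room air. Of 6 heart muscle markers 5 were lower (median sum 29.7 FPKM and 265), as were 4 of 5 proliferation genes. Of 5 endothelial markers 1 was higher and 2 lower, of 4 airway markers 1 and 2, and of 3 eosinophil and mast cell markers 1 and 1. Scgb1a1, of airway club cells, took 10.4% to 30.2% of the summed FPKM in room air and 1.2% to 6.46% in hyperoxia. The sum itself was 559144 to 748290 in room air and 510933 to 569855 in hyperoxia. The part of these changes in the members' values was not tested. The 7 members called were also called with quantile normalization and with median ratio scaling.

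Some members share stretches of transcript with other genes. Of 30-base sequences in the transcripts, 23.9% for Csf3r (most often with AC105061.2), 10.5% for Ly6g (most often with Ly6i), 8.06% for Cxcr2 (most often with Dnajb14) and 5.85% for Retnlg (most often with Retnla) also occur in transcripts of other genes, so their levels are less certain than those of the other 5 members, for which the share was 0%. Over all genes, Pearson's r was 0.933 to 0.979 in the 48 pairs of mice of 1 group (median 0.968) and 0.817 to 0.976 in pairs of different groups (median 0.925), and no 2 mice had identical values.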

How the data were processed

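The authors sequenced polyA RNA of 48 mouse lungs. According to the submitters' processing notes, GSNAP, SAMtools and Cufflinks were run on mm10, and the deposited table holds FPKM per gene and mouse, already scaled by gene length and mapped fragments. The annotation release is not given in the sources used here, and the labels and the methods name different HiSeq instruments. The depth is unknown without read counts and counting error cannot be stated. P-values measure the spread between mice, each with its own number.

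Linear models of log2(FPKM + 1) were made with limma 3.58.1 under R 4.3.3 (eBayes with trend), keeping genes that reached 1 FPKM in 3 or more mice of the fit. P-values were adjusted by Benjamini-Hochberg over all genes tested, with a threshold of 0.05. Fits used the 12 saline mice in room air, the 24 saline mice, the 24 room air or 24 hyperoxia mice, or all 48. Changes are on the log2(FPKM + 1) scale, which understates those of low genes. One gene with failed estimates was left out. Exact permutation tests of FPKM were two-sided, with scipy 1.17.1. Coordinates and shared 30-base sequences came from GENCODE for GRCm38, promoters from RefSeq GRCm38.p6, where all 9 members matched. The models were tested on simulated data.

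The members and lists were chosen with earlier results of these data known. All 9 members were named in each comparison, with the 3 largest changes past the threshold under hyperoxia in each other neutrophil list and the 8 genes most like the members. One further list of genes is not reported here. Contrasts within single strain and sex groups were added after the values were seen. Alternatives were a pseudocount of 0.1, an FPKM filter of 0.1 or none, quantile normalization, median ratio scaling, eBayes with no trend, a fit of all 48 mice and leaving out each mouse.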

Additional observations from a re-analysis of the deposited data

Results flagged for a closer look

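In each strain, injection and air combination, the 6 mice of both sexes were checked for a mouse far from the others. Of 72 such sets for the 9 genes, 2 held one by Dixon's test (critical value 0.625), and chance alone gives about 1 in 20. The test and the gaps below are on the log2(FPKM + 1) scale, whereas levels are printed in FPKM. For Ly6g in C3H mice given ATG in hyperoxia, C3HF mouse 34 had 5.64 FPKM and the others 0.243 to 1.22, a gap of 0.654 of the range. The same mouse had the highest S100a8 (1006 FPKM) and Retnlg (271 FPKM) of these 6. For Retnlg in C3H saline mice in room air, C3HM mouse 2 had 6.33 FPKM and the others 13.3 to 17.8, a gap of 0.704 of the range. Mouse 2 also had the lowest S100a8 of these 6, at 51.8 FPKM.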

How the results depend on the processing

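No paired analysis was possible because each mouse has its own number, so no numbers are shared between groups. No member called in a comparison changed direction under the alternatives run. The median over all genes shifted with scaling, for strain at baseline from -0.0967 to 0.0158 with quantile normalization. Of 83 recomputed counts of members called, apart from those with a mouse left out, 72 stayed within 1.5 times. Strain at baseline, with 5 members called, gave 3 with an FPKM filter of 0.1, 2 with no filter, 2 with quantile normalization, 2 with median ratio scaling and 0 with all 48 mice fitted. Hyperoxia in C57B, with 5, gave 3 with no filter. The difference between strains in the hyperoxia effect, with 0, gave 1 with quantile normalization and 1 with all 48 mice. That fit also gave 3 for hyperoxia in C3H (1 otherwise), 1 for the difference between sexes (0 otherwise) and 3 for strain in hyperoxia (1 otherwise). With 1 mouse left out the counts were 2 to 6 for strain, 0 to 3 for sex and 0 to 1 for their interaction at baseline. They were 7 to 8 for hyperoxia in saline mice, 0 to 5 in C3H, 2 to 6 in C57B, 0 to 1 for the difference between strains, 0 to 5 for that between sexes and 1 to 5 for strain in hyperoxia. Within groups, hyperoxia gave 0 to 5 in C3HF, 0 to 1 in C3HM and 5 to 7 in C57BF. The 3 ATG comparisons stayed at 0. The causes were not tested. The smallest values above 0 were 0.158 FPKM for Ltf, 0.181 for Ly6g, 0.198 for Ngp and 0.250 for Camp, so at these levels a change of a few fragments cannot be told from none, and depth is unknown.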

Other observations

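The genes outside the 9 whose log2(FPKM + 1) was most like the mean of the members over the 48 mice were Trem1 (Pearson's r 0.931), Clec4e (0.929), Nlrp12 (0.917), Il1b (0.905), Slfn1 (0.905), Il18rap (0.900), Asprv1 (0.899) and Siglece (0.898). Trem1 encodes an activating receptor of neutrophils and monocytes, Clec4e a receptor for mycobacterial glycolipid and dead cells, and Siglece an inhibitory receptor for sialic acid. With group means removed r was 0.799 to 0.931. Of the members, Camp (0.380) and Ltf (0.365) ranked 2146 and 2361 of the 16994 genes in likeness to this mean, although both are part of it. These genes were chosen for following the members over all 48 mice, so their levels are no separate evidence, and the mice share treatments.

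In C57BM given ATG in room air, 7 members lay above saline C57BM, whereas Camp and Ltf overlapped. There Cxcl1 was 0.923 to 1.06 FPKM, beside 0.597 to 1.01 in C57BM given saline. Csf3 was listed at 0 in all 3 of these ATG mice and was at most 0.126 FPKM in the saline mice. The other chemokine and growth factor genes are not given here for these mice, and a relation to the members' values was not tested.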
